A study of Drosophila melanogaster with 2 samples.

Results

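Multi-summit intervals are peak intervals of Capicua ChIP-seq for which the authors' list gives more than 1 summit. They were chosen by the authors' own peak calls: an entry of the dm6 list of reproducible peaks was a member if at least 1 other entry had the same chromosome, start and end. Of 7152 entries, 839 met this rule (11.7%, 95% exact interval 11.0 to 12.5), and they formed 398 of 6711 distinct intervals (5.93%, 5.38 to 6.52). The other 6313 intervals had a single summit. The share of entries was 6.58% in the authors' reproducible list on dm3, and 6.80% and 6.53% among the 7152 strongest entries of replicate 1 and of replicate 3 alone. It was 28.0% when overlapping intervals were joined, which needs no identical coordinates. Intervals of shares are exact Clopper-Pearson intervals and intervals of medians are exact order-statistic intervals, both at 95%. They cover counting error only and treat intervals as independent, which neighbours are not.

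The flies were whole adult Drosophila melanogaster of the cic-GFP strain, males and females pooled and of unknown age, in which a transgene stably expresses Capicua with GFP fused to its C-terminus. Chromatin was sonicated to 200 to 800 bp and recovered with an antibody against GFP, so that the lists record the tagged protein, summed over all tissues of the adult. The only group had 2 biological replicates, 1 and 3 by their labels, and there was no condition to compare; how the flies of each were raised is not stated, so that the spread between them may be technical. The lists hold no read counts, and library depth is unknown. The score of an entry is the authors' own peak strength and serves here to describe and rank entries within a list.

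Capicua is an HMG-box repressor that binds octamers such as TGAATGAA and is relieved when receptor tyrosine kinases activate ERK. In flies it is known for holding back genes of growth and patterning until EGFR or Torso signals. A summit is the position of highest signal that a peak caller assigns to a binding event. An interval is the stretch that the caller draws as enriched, and it may hold more than 1 summit.

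The sequences that show how Capicua octamers sat relative to a pair of summits came from 8 of the 25 strongest members. Each is the plus strand of dm6 (RefSeq Release 6), 5′ to 3′, in lower case, with TGAATGAA or TGAATGGA, or the reverse complement of either, in capitals. In the first 6 lines the octamer lay within 100 bp of the strongest summit, and in the last 2, CG7149 and CG14777, it lay within 100 bp of the lower summit instead.
Pdk1, chr3L:128542-128619: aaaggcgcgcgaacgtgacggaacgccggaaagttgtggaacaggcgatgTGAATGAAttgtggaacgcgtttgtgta
spi, chr2L:19576524-19576598: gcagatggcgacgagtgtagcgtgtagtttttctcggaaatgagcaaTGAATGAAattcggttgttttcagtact
cic, chr3R:20253981-20254057: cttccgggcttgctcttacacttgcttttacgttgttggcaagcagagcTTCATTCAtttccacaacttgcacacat
REPTOR, chr3R:24582016-24582081: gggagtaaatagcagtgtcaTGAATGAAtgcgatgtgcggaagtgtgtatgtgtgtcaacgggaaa
RasGAP1, chr3L:9853937-9854105: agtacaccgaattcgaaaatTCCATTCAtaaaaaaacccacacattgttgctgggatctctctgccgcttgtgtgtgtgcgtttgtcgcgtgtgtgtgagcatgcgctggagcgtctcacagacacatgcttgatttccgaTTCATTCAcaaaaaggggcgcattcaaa
fig, chr3R:29778904-29778994: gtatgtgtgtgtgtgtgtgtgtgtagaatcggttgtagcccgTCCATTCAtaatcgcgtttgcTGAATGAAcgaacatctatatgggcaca
CG7149, chr2L:7790801-7791055: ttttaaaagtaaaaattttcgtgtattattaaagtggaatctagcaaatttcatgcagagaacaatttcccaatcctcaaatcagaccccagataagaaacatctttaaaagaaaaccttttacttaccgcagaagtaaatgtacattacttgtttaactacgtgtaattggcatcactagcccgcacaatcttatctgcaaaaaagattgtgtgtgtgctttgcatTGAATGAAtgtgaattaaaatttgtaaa
CG14777, chrX:1466936-1467117: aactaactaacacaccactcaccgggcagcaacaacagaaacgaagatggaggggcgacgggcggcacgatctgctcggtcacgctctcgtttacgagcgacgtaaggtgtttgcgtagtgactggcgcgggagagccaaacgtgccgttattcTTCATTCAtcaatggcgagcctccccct

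The octamer began to the right of the strongest summit at Pdk1, spi and cic, with its nearest base 30, 27 and 29 bp from the summit, and to the left at REPTOR, 18 bp away. RasGAP1 had 2 copies, a TGAATGGA on the minus strand 90 bp to the left and a TGAATGAA on the minus strand 24 bp to the right. The copies at fig, 22 and 43 bp to the right of the summit, were on opposite strands. At CG7149 the copy was 207 bp, and at CG14777 134 bp, from the strongest summit. A ninth member of the 25, at InR, had a copy within 100 bp of its rightmost summit and 2 near its strongest, on the plus strand of 3R at 21590042 to 21590049 and at 21590106 to 21590113, and the latter covered the strongest summit.

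The strongest member of all lay in an intron of cic itself, on 3R from 20260983 to 20262863, and its summits, 208 bp apart, scored 2005 and 401. The strongest entries that overlapped it in the replicates' own lists scored 1064 in replicate 1 and 959 in replicate 3 (1012 ± 74.4, SD, n = 2). A second member of cic, from 20252404 to 20254437, had 3 summits with scores of 239, 561 and 1362, from left to right, and the highest was the intronic one shown above. The replicates gave it 671 and 701 (686 ± 21.5, SD, n = 2). Both members were therefore found in each replicate, and the gene held 4 in all.

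At spi, which encodes the EGFR ligand Spitz, the promoter member on 2L from 19575826 to 19577304 had summits of 1406 and 333, 203 bp apart, and 715 and 705 in replicates 1 and 3 (710 ± 6.59, SD, n = 2). RasGAP1, which encodes a GTPase-activating protein of Ras, had an intronic member on 3L from 9853700 to 9854490 with summits of 1232 and 122. Its replicate scores were 688 and 546 (617 ± 101, SD, n = 2). Socs36E, a suppressor of cytokine signalling that also dampens EGFR, had an intronic member with summits of 1316 and 144, and 676 and 646 in the replicates (661 ± 21.3, SD, n = 2). Replicate values lay closer together at spi and Socs36E than at RasGAP1.

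At genes of insulin and TOR signalling lay 4 of the 25 strongest members. Of the 24 genes listed for this pathway, 19 (79.2%) had a promoter summit of any kind, against 30.5% of all protein-coding genes. The receptor gene InR had a promoter member with 3 summits, on 3R from 21589670 to 21591401, and from left to right they scored 1261, 398 and 663. Its replicate scores were 674 and 597 (636 ± 54.2, SD, n = 2). Pdk1, the kinase that phosphorylates Akt, had a member on 3L from 128227 to 129076 with summits of 1627 and 216, and 939 and 688 in the replicates (814 ± 177, SD, n = 2). Akt, the central kinase of the pathway, had summits of 1236 and 283, with replicate scores of 626 and 622 (624 ± 3.49, SD, n = 2). REPTOR, a bZIP factor that TORC1 holds in the cytoplasm, had summits of 1277 and 370, with 688 and 585 (637 ± 73.0, SD, n = 2). Replicate 1 was the higher at all 4 genes, most clearly at Pdk1.

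Other strong members lay at genes of transcriptional and RNA regulators. The first of these was spen, which encodes a nuclear RNA-binding repressor, with an intronic pair of 1588 and 206 and replicate scores of 716 and 885 (800 ± 120, SD, n = 2). For shn, the zinc-finger partner of BMP signalling, the pair scored 1566 and 154, with 590 in replicate 1 and 984 in replicate 3 (787 ± 278, SD, n = 2). The RNA-binding protein gene Syp had a pair of 1446 and 252, with 908 in replicate 1 and 540 in replicate 3 (724 ± 260, SD, n = 2). Replicates were farthest apart at shn and Syp among the 25, in opposite directions. The bHLH gene crp had intronic pairs of 1427 and 272 (715 ± 18.3 in the replicates, SD, n = 2) and of 1105 and 947 (553 ± 2.21, SD, n = 2); the start nearest to the second is that of CG4935. Sox14, an ecdysone-induced HMG-box factor, scored 1274 and 533, and the clock repressor gene vri scored 1187 and 423. At fig the pair of 1115 and 248 lay inside kay, which encodes the AP-1 subunit Fos. Near CG7878, 3 summits of 1238, 358 and 229 lay in an intron of puc, the phosphatase that limits JNK.

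The remaining members of the 25 were nearest to omd, CG31678, CG7149, CG14777, Pect, lbk and CG3764. Of these, CG7149 had the most even pair, 1181 and 1050, while Pect, a gene of phosphatidylethanolamine synthesis, had 1123 and 184. Of all 25, 13 had the strongest summit at a promoter and 12 in an intron, 7 had an octamer within 100 bp of it, and 22 had exactly 2 summits. All 25 also had several summits in 1 interval of each replicate's own list. Replicate 1 had the higher score in 17.

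**Figure D1:**
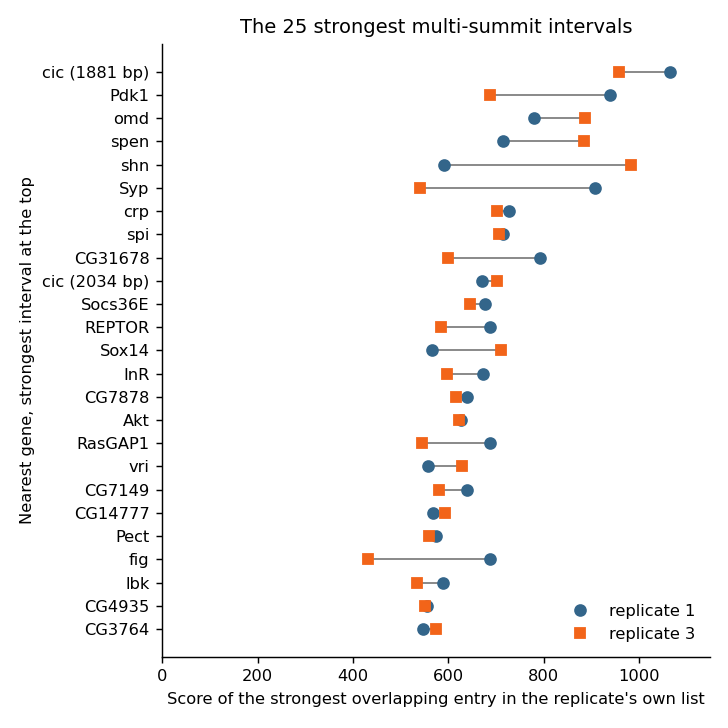
Scores of the 25 strongest multi-summit intervals in the replicates' own lists, labelled by the nearest protein-coding gene and, for cic, by width. Each row gives replicate 1 (circle) and replicate 3 (square) of 1 interval, joined by a line; the widest gaps are at shn, where replicate 3 is higher (984 against 590), and at Syp, where replicate 1 is higher (908 against 540).

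Most members had the smallest number of summits that the rule allows. There were 365 intervals with 2 summits (91.7%), 26 with 3, 5 with 4, 1 with 5 and 1 with 6, so that 33 had 3 or more (8.29%, 5.78 to 11.4). The interval with 6 summits lay on 2L from 478664 to 481814 and was also the widest, at 3151 bp. Its summits formed 2 clusters of 3, separated by 1458 bp, the widest gap in the list. The left cluster, with scores of 378, 211 and 194, lay at the promoter of cbt, a zinc-finger gene that responds to sugar and to stress. The right cluster, with 881, 677 and 166, was intronic, inside ush, the gene for a cofactor of GATA factors. The replicates scored 390 and 484 there (437 ± 66.0, SD, n = 2), and each had 7 summits in the interval. With 5 summits, CG10543 had 673 and 241 at its promoter, and 580, 321 and 261 farther into the gene, over 2689 bp. The next widest, of 2512 bp, lay in an intron of shn, with summits of 260, 153 and 272.

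At Sin3A, a scaffold of histone deacetylase complexes, the 4 summits of a member of 2310 bp scored 415 and 219, then 621 and 339 after a gap of 1101 bp. The pattern of falling scores within a cluster recurred at these 3 genes. Where 3 or more summits shared an interval, 35 of 76 spacings were at most 210 bp, and in all 35 the left summit had the higher score. Of the 30 spacings over 300 bp, the left was higher in 11. The widest gaps after that of cbt were at Sin3A and near SIFaR, the gene for the SIFamide receptor, where summits of 169 and 349 lay 1085 bp apart.

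**Figure D2:**
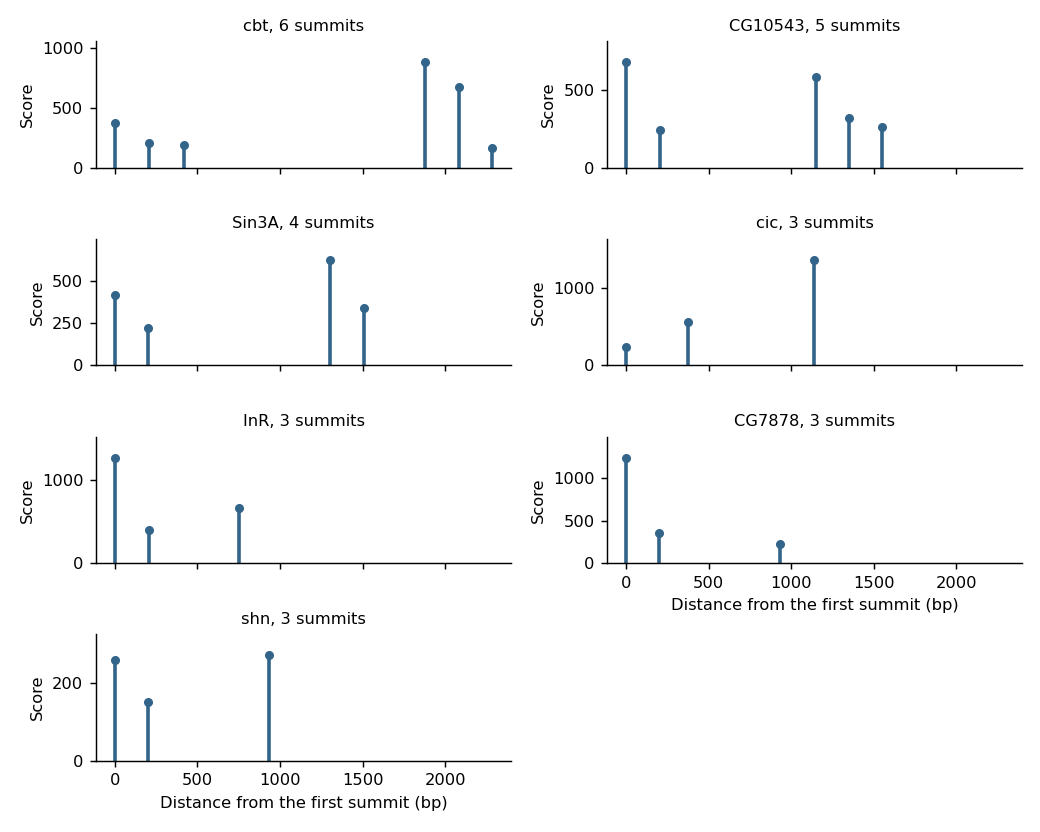
Summits of intervals with 3 or more summits that were named for their score, number of summits, width or gap, 1 panel for each. The horizontal axis is the distance from the first summit in bp and the height of each line is the authors' score; within clusters about 200 bp apart the left summit is the tallest, as in the groups of cbt, while across gaps, as at cic and cbt, the right one can be taller.

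Summits of 1 interval were spaced at close to a fixed distance. Over 441 spacings between neighbouring summits the smallest was 199 bp, the median 203 bp (203 to 204) and the largest 1458 bp. A spacing of exactly 199 bp occurred 55 times, one of 200 to 204 bp 200 times and one of 205 to 210 bp 75 times, so that 330 of 441 (74.8%, 70.5 to 78.8) were at most 210 bp. A further 57 were 211 to 250 bp, 14 were 251 to 300 bp, and 40 (9.07%) were longer. The smallest distance of 199 bp was not particular to multi-summit intervals. It was also the smallest between neighbouring summits of different intervals in this list, and it was the smallest in both respects in each of the 8 lists on dm6 and dm3. The peak caller and any minimum distance it was set to were not given in the sources used here. Whether a pair near 199 bp is 2 sites of binding or 1 broad enrichment was not tested.

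**Figure D3:**
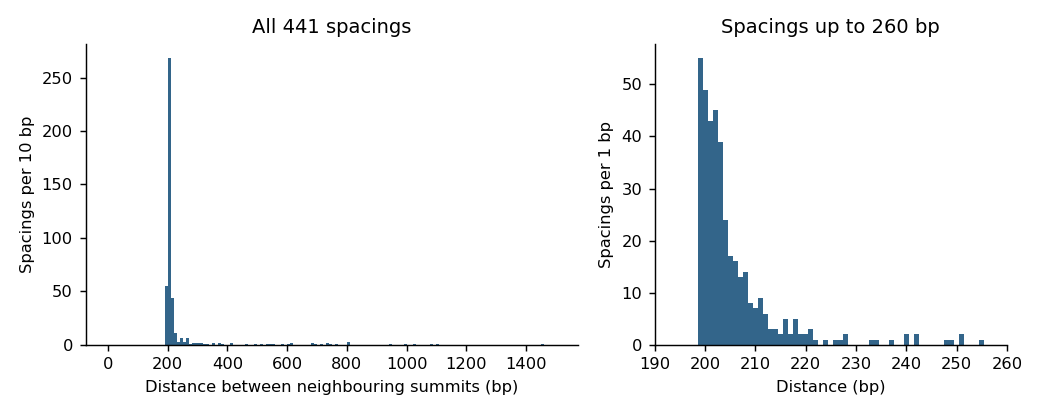
Distances between neighbouring summits of the same interval, in bp, for all 441 spacings in bins of 10 bp (left) and for those up to 260 bp in bins of 1 bp (right). No distance is below 199 bp, and the counts fall away from 55 at 199 bp, with a median of 203 bp.

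The higher-scoring summit lay almost always at the lower genome coordinate. It did so in 359 of 365 intervals with 2 summits (98.4%, 96.5 to 99.4). At spacings of at most 210 bp this held in 295 of 295, at 211 to 300 bp in 59 of 60, and over 300 bp in 5 of 10. The side followed the coordinate and not the direction of the gene. At promoters the left summit was the stronger in 113 of 117 members at genes on the plus strand and in 112 of 112 on the minus strand. The lower summit was therefore downstream of the stronger, relative to the gene, in 113 of 229 promoter members (49.3%, 42.7 to 56.0). Among neighbouring summits at most 210 bp apart that the list gives in 2 different intervals, the left was likewise stronger in 453 of 455 (99.6%). In the other 7 lists the share in 2-summit intervals was 98.3% to 100%. Of the 6 members with the stronger summit on the right, 5 had spacings of 301 bp or more and the other had 280 bp. What sets the order was not tested.

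The lower score was typically under the higher by a wide margin. The ratio of lower to higher score in 2-summit intervals had a median of 0.463 (0.426 to 0.500) and ranged from 0.0986 to 0.970. It was 0.445 (0.402 to 0.480) at spacings of at most 210 bp, 0.556 (0.453 to 0.657) at 211 to 300 bp and 0.821 (0.453 to 0.880) over 300 bp, where there were 10 intervals. Intervals also reached farther on the left: the median distance from the interval's start to its first summit was 300.5 bp, and from its last summit to its end 177.5 bp. In single-summit intervals these distances were 240 and 239 bp.

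**Figure D4:**
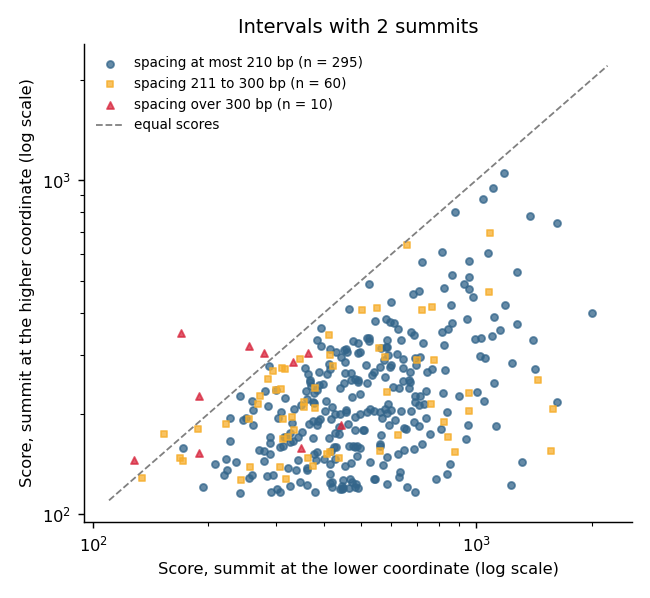
Scores of both summits of the 365 intervals with 2 summits, on log scales, with the summit at the lower coordinate on the horizontal axis and colour and shape by spacing. All points at spacings of at most 210 bp lie below the dashed line of equal scores, as do 59 of 60 at 211 to 300 bp, while 5 of 10 at longer spacings lie above it.

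Members were among the widest and strongest intervals of the list; both properties come from the same calls that chose them and were not tested. Their width ranged from 334 to 3151 bp with a median of 712 bp (672 to 736), against 120 to 1460 bp and a median of 480 bp for single-summit intervals, of which 43.0% were exactly 480 bp wide. Intervals with 3 or more summits had a median of 1441 bp (1288 to 1761). The strongest summit of a member scored 134 to 2005 with a median of 483 (455 to 519), and the lower summits had a median of 210 (201 to 224). Other lists and sets of intervals gave other medians of the strongest summits. Multi-summit intervals among the 7152 strongest entries of replicate 1 and of replicate 3 alone had 312 and 303. These are scores of the replicates' own lists, in which the 398 members had medians of 243 and 254, so they do not compare with 483. In the reproducible list with overlapping intervals joined, the median was 315. Single-summit intervals had a median of 172 (169 to 174), and their highest, 3067, was the highest of the list. Of the 25 strongest intervals 11 were members, and of the 100 strongest 58. With the intervals cut into groups of 20% from strongest to weakest, the share of members was 26.1%, 2.76%, 0.596%, 0.0745% and 0.0745%.

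A lower summit counted only if it passed the list's own threshold. The lowest score in the list was 115.8. Second summits just inside it scored 116.1, 116.3 and 116.3, while in the relaxed list of the pooled replicates the highest further summits of single-summit intervals just outside it scored 115.7, 115.7 and 115.6. In all, 170 single-summit intervals had a further summit in that relaxed list. Close neighbours that the list keeps in different intervals were weaker than those in 1 interval, with a median score of the stronger summit of 259 (249 to 266) against 498 (474 to 545).

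Most members lay at promoters, as did most single-summit intervals. A promoter is here the region within 1000 bp of any start of a protein-coding transcript of Ensembl release 115. The strongest summit was there in 247 of 398 members (62.1%, 57.1 to 66.8) and in 65.1% (63.9 to 66.3) of single-summit intervals. It was intronic in 112 (28.1%, 23.8 to 32.8) against 26.4%, and intergenic in 32 (8.04%, 5.56 to 11.2) against 5.94%. No strongest summit lay in a coding exon away from promoters, which allows a share of up to 0.923% (upper limit of the exact interval). The share of single-summit intervals, 0.602%, lies below that limit. Within the strongest 20% of intervals, 62.1% of members and 63.4% of single-summit intervals were at promoters. The median distance to the nearest start was nevertheless longer, 582 bp (420 to 756) against 316 bp (294 to 358).

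Few members had summits nearest to the starts of different genes. In 70 of 398 (17.6%, 14.0 to 21.7) a start lay between the outermost summits, and in 8 (2.01%) the summits lay within 1000 bp of, and nearest to, the starts of different genes. These 8 included chb, for a microtubule-binding CLASP protein, with AsnS, the asparagine synthetase gene, at 85 and 20 bp from the summits. They also included RpS27, of the small ribosomal subunit, with Nup37, a nuclear pore gene, at 6 and 56 bp, and CG9586 with tai, for a co-activator of the ecdysone receptor, at 43 and 12 bp. The pairs Gk1 and CG13876, endos and CG6650, Bacc and Pgk, p38a and CG6178, and Vti1b and Vha100-2 made up the rest. The count of 8 leaves out members whose summits share a nearest gene but also lie within 1000 bp of another gene's start. The 257 members with a promoter summit reached 300 genes.

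The 4 large autosomal arms carried 3.11 to 3.49 members per Mb, with 82 on 2L, 83 on 2R, 87 on 3L and 110 on 3R. The X chromosome carried 36, or 1.53 per Mb, and 4.22% (2.97 to 5.79) of its intervals were members, against 5.59% to 6.79% on those arms. None of the 23 intervals on chromosome 4 was a member. Some genes held several members, counted over the gene and its promoters: 399 genes had at least 1, 49 had at least 2 and 16 had at least 3. The most, 5, were in introns of tara, a cofactor gene of the Trithorax group, with strongest scores from 383 to 595, and none of these had an octamer at its strongest summit. Of the next genes, cic, crp and the clock gene Pdp1 had 4 each. These 4 genes were picked for their counts, and long genes have more room.

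Capicua octamers were at a minority of members. TGAATGAA or TGAATGGA, on either strand, lay within 100 bp of 5.23% of all 7152 entries. At strongest summits of members they were present in 34 of 398 (8.54%, 5.99 to 11.7), against 2.89% of windows of the same size 1000 bp to each side. Of these 34, 30 had 1 copy and 4 had 2. Intervals that were multi-summit among the 7152 strongest entries of replicate 1 alone are a different set. At their strongest summits the share was 13.9%, and for the same choice in replicate 3 alone it was 7.62%. Lower summits of members had octamers in 25 of 441 (5.67%, 3.70 to 8.25), against 3.51% of their flanks, and any summit of the interval in 58 of 398 (14.6%). Single-summit intervals had them in 4.99% (4.47 to 5.56), against 2.74% of flanks. Among the strongest 20% of intervals the order was the other way, with 8.83% (6.08 to 12.3) of members and 10.4% (8.55 to 12.5) of single-summit intervals, and the intervals of these shares overlap.

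In pairs at most 210 bp apart, octamers were most frequent in the 50 bp to the right of the stronger summit. That bin held 13 in 295 pairs, or 44.1 per 1000 pairs. The next most, 9 or 30.5 per 1000, lay 50 to 100 bp to the left, while the 50 bp directly to the left held 4, or 13.6 per 1000. The bins on either side of the usual position of the lower summit, 150 to 200 and 200 to 250 bp to the right, held 3 and 5. Around single summits the 50 bp to the right held 16.2 per 1000, the 50 bp directly to the left 14.6 and the bin 50 to 100 bp to the left 11.7. The counts in pairs are small.

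Repeats were the motifs that members carried most often. The CA repeat CACACACA was within 100 bp of 19.8% (16.0 to 24.1) of strongest summits, 15.2% of lower summits and 9.69% of single summits. The GAGA element GAGAGAG, bound by the Trl protein, was at 14.1% (10.8 to 17.9), 16.8% and 8.44%. In the strongest 20% the CA repeat was at 19.1% (15.1 to 23.6) of members and 12.9% (10.9 to 15.2) of single-summit intervals, and the GAGA element at 12.8% (9.51 to 16.8) and 11.1% (9.20 to 13.2). The DRE, TATCGATA, the site of the factor Dref at housekeeping promoters, was at 0.754% of strongest summits and 2.99% (2.59 to 3.44) of single summits. In the strongest 20% these shares were 0.855% (0.177 to 2.48) and 1.41% (0.774 to 2.36). The GATA site TGATAAG was at 11.8% and 11.9%, the E-box CACGTG at 5.78% and 4.04%, and the AP-1 site TGANTCA at 5.53% and 5.32%. In the strongest 20% the GATA site was at 12.0% (8.76 to 15.8) of members and 14.9% (12.8 to 17.3) of single-summit intervals. The E-box was there at 5.41% and 4.13%, and the AP-1 site at 4.84% and 4.94%. Each was sought on both strands; overlapping copies of a repeat count once per window. GC content within 100 bp had a median of 46.3% (45.3 to 47.3) at strongest summits, 44.8% at lower and 42.8% at single summits, and in the strongest 20% 45.8% for members and 43.8% for single-summit intervals. Its part in these shares was not tested.

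**Figure D5:**
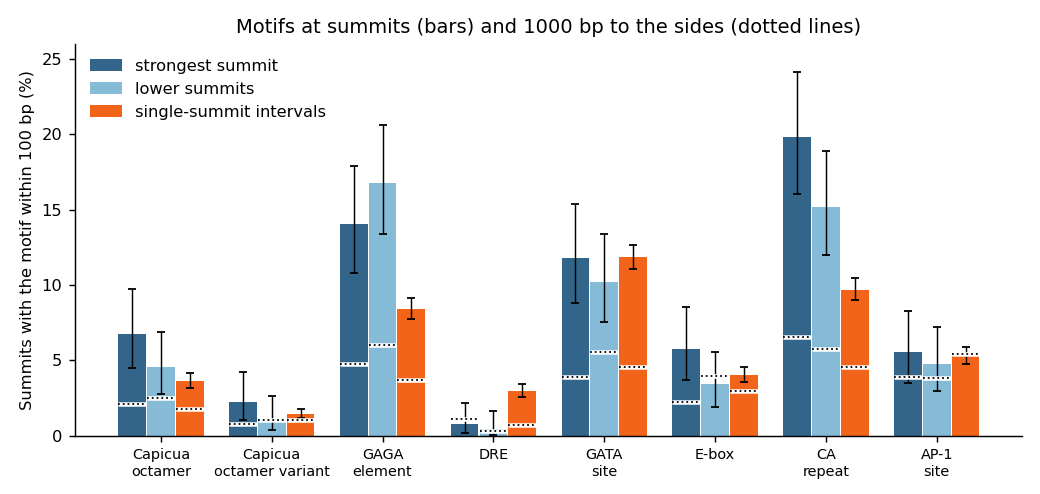
Share of summits with each motif within 100 bp, in percent, for the 398 strongest summits of members, their 441 lower summits and the 6313 summits of single-summit intervals, with 95% exact intervals. Dotted lines give the share of windows 1000 bp to the sides of the same summits; CA repeats reach 19.8%, 15.2% and 9.69% in the order of the bars.

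Members at promoters reached 300 of 13945 protein-coding genes (2.15%), while 4257 genes (30.5%) had a summit of any kind at a promoter, so that 7.05% of bound promoters were multi-summit. Multi-summit intervals among the 7152 strongest entries of replicate 1 and of replicate 3 alone reached 168 and 161 genes. With overlapping intervals joined 843 were reached, and with summits under 250 bp apart counted as 1, 44. Genes were set against 27 lists of pathways and functions, chosen with earlier results of these data known, and counts are given without a test. Listed names that did not match a protein-coding gene by symbol, namely lrig1, Sprint, Star, Tor, Dl and rye, are not in the counts. Of 24 genes of insulin and TOR signalling, 6 had a multi-summit promoter (25.0%, 9.77 to 46.7). Beside Pdk1, REPTOR, InR and Akt these were Thor, the 4E-BP translation inhibitor, and Sesn, the sestrin that restrains TORC1; their strongest promoter summits scored 580 and 483. Of 12 circadian clock genes, 10 (83.3%) had a promoter summit of any kind and 5 a multi-summit promoter (41.7%, 15.2 to 72.3). At vri the promoter summit scored 1187, at the photoreceptor gene cry 601, at the clock component tim 438, at Pdp1, an activator of the clock, 430, and at the repressor cwo 320. Replicates 1 and 3 gave vri 557 and 628, cry 235 and 370, tim 247 and 193, Pdp1 205 and 227, and cwo 159 and 190, so that cry differed most relative to its level.

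Metabolic regulators and enzymes had 7 of 19 (36.8%, 16.3 to 61.6). Hnf4, a nuclear receptor of fat metabolism, had 4 summits in 1 promoter interval, of 710, 264, 180 and 189, and replicate scores of 384 and 332 (358 ± 36.6, SD, n = 2). Mondo, the sugar-sensing partner of Mlx, scored 518, the receptor gene ERR 496 and Pfk, for phosphofructokinase, 380. The other 3 were sug, Treh and SREBP.

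In receptor tyrosine kinase signalling, multi-summit promoters were found at ligands, in the cascade and at 1 inhibitor. Of 8 genes for EGFR, its ligands and their processing, 4 had a promoter summit of any kind. The ligand genes spi (1406) and Krn (632) had a multi-summit promoter. Of 16 genes of the Ras-ERK cascade, 9 had a promoter summit and 3 a multi-summit promoter. These were cic with a promoter summit of 561, csw, the SHP2 phosphatase gene, with 463, and the scaffold gene cnk with 444. Of 12 feedback inhibitors, 7 had a promoter summit, and only Mkp3, the ERK phosphatase gene, had a multi-summit promoter, with 375. Of 8 ETS factors none had a multi-summit promoter, although 5 had a promoter summit. Counted over the whole gene, the ETS gene aop held 2 members, the stronger with 469. A member that scored 629 lay in an intron of Eip74EF, also an ETS gene. The scores at spi and csw were 715 and 705, and 206 and 262, in replicates 1 and 3.

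In the other lists with a member at a promoter the share of genes ran from 1.15% to 15.4%, against 2.15% of all protein-coding genes. Chromatin regulators had 4 of 30, which were Trl, the GAGA factor gene (763), ph-d (361), kis (313) and osa (128). The lists of 2 were BMP signalling (shn and brk, of 15), the Hippo pathway (Diap1 and kibra, of 13), Toll and IMD immunity (pirk and imd, of 16), stress response (REPTOR and cnc, of 13), ecdysone and juvenile hormone (Kr-h1 and Eip93F, of 19) and cytoplasmic ribosomal proteins (RpS12 and RpS27, of 93). The ribosomal list had a promoter summit at 63 of 93 genes, so that its bound promoters were multi-summit in 2 cases, whereas metabolic genes had 16 bound and 7 multi-summit. GATAe was the 1 member of 15 gut factors, Mef2 of 16 muscle genes and COX7AL2 of 87 genes of the respiratory chain. No multi-summit promoter was found among JAK/STAT, Notch, Wnt, JNK, neuronal, Hox, segmentation, cell cycle or testis genes. These lists are short, and the upper limits of their exact intervals, from 16.8% to 36.9%, lie above the share of all genes. Of 179 chemosensory receptors 0 had one, which allows a share of up to 2.04%, but only 7 (3.91%) had a promoter summit of any kind. Such summits were also few at Hox (0 of 8), segmentation (1 of 20), neuronal (2 of 14) and testis genes (2 of 12). They were more frequent at cell cycle (5 of 18), Notch (5 of 13), JAK/STAT (4 of 10), Wnt (7 of 15) and JNK genes (7 of 9). Where few promoters had a summit, few could be multi-summit. The counts cover promoters only, and leave out intronic members such as those in Socs36E, puc and kay.

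Members were present in both replicates, although not always as 1 interval with several summits. The lists of the replicates hold 30000 entries each and were made from the same libraries as the pooled calls, so that they are not independent of them. All 398 members overlapped entries in each, as did 99.8% (replicate 1) and 99.7% (replicate 3) of single-summit intervals. The list keeps only reproducible peaks, so this overlap follows from the choice of list and is not particular to members. An interval with several summits overlapped 207 members in replicate 1 (52.0%, 47.0 to 57.0) and 199 in replicate 3 (exact interval 45.0% to 55.0%); 154 had one in both (38.7%) and 146 in neither (36.7%). The same was true of 2.19% and 1.90% of single-summit intervals. Of the 33 members with 3 or more summits, 24 were multi-summit in both replicates. At least 2 replicate summits fell inside 94.5% of members in replicate 1 and 94.7% in replicate 3, in whatever interval they were listed.

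Summit positions recurred within 50 bp. Strongest summits had a replicate 1 summit that close in 86.4% (82.7 to 89.6) and a replicate 3 summit in 87.2% (83.5 to 90.3), against 82.4% and 83.6% for single-summit intervals. For lower summits the shares were 86.6% (83.1 to 89.7) and 84.1% (80.4 to 87.4), and 71.9% had a summit of both. The median score of a member was 243 (224 to 257) in replicate 1 and 254 (242 to 266) in replicate 3, against 91.7 and 98.8 for single-summit intervals. The median absolute log2 ratio of the replicates was 0.27 (0.24 to 0.31) for members and 0.33 (0.32 to 0.34) for single-summit intervals, and 11 members differed by over 2-fold.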

How the data were processed

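The authors deposited peak lists from both replicates, from the pooled replicates and, past a threshold on reproducibility, as an optimal list, each on dm6 and dm3 and made with a control alignment, per the labels' accompanying file list. Aligner, caller and settings were not given in the sources used here. Column 7 of the deposited lists is the authors' score, column 10 their summit offset; 3 summits of the optimal dm6 list fall beyond their interval and were kept. The deposited −log10 of the q-value is capped and was not used.

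Entries with identical coordinates were grouped and placed against Ensembl release 115 genes and the RefSeq Release 6 sequence. A summit not at a promoter was placed in a UTR or coding exon before an intron, and otherwise called intergenic. A replicate score is that of the strongest replicate entry that overlaps by 1 bp or more. No test was run, since the members were selected on the same calls; shares and medians have exact intervals. The members, lists, motifs and alternatives were chosen with earlier results of these data known. Named genes are those nearest to the 25 strongest members, to members with the most summits, the widest or the widest gaps. Those nearest to members spanning different genes were named too, with up to 4 genes per list. Thor, Sesn, cwo, sug, Treh, SREBP, tara, aop, Eip74EF and the genes that hold an intron were named after their values were seen. The alternatives were the dm3 list, the relaxed lists, a stricter score, joined intervals, each replicate alone, and other distances. The procedures were tested on simulated data. Work was done in Python 3.11.15 with scipy 1.17.1, numpy 2.4.6, matplotlib 3.10.9 and pandas 2.3.3.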

Additional observations from a re-analysis of the deposited data

How the results depend on the processing

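No paired analysis was possible because there is 1 group. The share of entries in multi-summit intervals, 11.7%, was 6.58% on dm3, 4.00% in the pooled relaxed list, 15.5% in the stronger 50% of entries, 28.0% with overlapping intervals joined (2001 entries in 969 clusters) and 10.4% with summits under 200 bp apart counted as 1. Among the 7152 strongest entries of each replicate's list it was 6.53% to 6.80%. For the multi-summit intervals there, the median score, on the scale of the replicates' own lists, was 303 to 312. The octamer share was 7.62% to 13.9%. These intervals gave 161 to 168 genes with a multi-summit promoter. The median width was 668 bp on dm3, 666.5 bp in the relaxed list, 774.5 bp in the stronger 50% and 635 bp with joined intervals. In the same order the median score was 604, 448, 561 and 315. The share with 3 or more summits was 4.48% in the stronger 50% and 5.06% with joined intervals. Joining also gave 69.7% with a promoter summit, where the value was 64.6%, 843 genes, and 96.3% with the stronger summit on the left. By construction, a promoter of 500 bp gave 52.8% and one of 5000 bp 87.7% and 655 genes. Octamers within 50 bp gave 5.53% and within 200 bp 12.3%. With each replicate's list cut to its 7152 strongest entries, 45.7% (replicate 1) and 44.5% (replicate 3) of members were multi-summit there. With any 2 summits of the full replicate list in the interval, the shares were 94.5% and 94.7%.

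Counting summits under 250 bp apart as 1, chosen after seeing the data, left 52 multi-summit intervals and 1.67% of entries. Of these, 15.4% had 3 or more summits, the median spacing was 422 bp, the width 1233.5 bp and the score 416. A promoter summit was in 71.2%, 44 genes had a multi-summit promoter, and the stronger summit was on the left in 70.5%. All results on the side of the stronger summit, the share of spacings up to 210 bp and the score ratio were also chosen after seeing the data. Apart from the values above, causes were not tested. Of 114 counts of summits of the 38 named intervals in the relaxed and replicate lists, 96 were the same as in the reproducible list. The median spacing was 203 or 204 bp in every setting but the one at 250 bp. Depth is unknown and so sets no stated limit.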
